A study of Mus musculus with 24 samples.

Results

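The 9 genes Insr, Irs1, Irs2, Pik3r1, Akt2, Foxo1, Foxo3, Sesn1 and Klf15 were followed in mouse liver by RNA sequencing, as genes of insulin signalling and of the FOXO branch below it. They were taken by gene symbol from the 41388 Ensembl genes of the count files, and all 9 matched 1 gene each. All 9 passed the filter on low counts, as did 16757 genes in all.

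Insulin binds its receptor on hepatocytes, and the receptor phosphorylates the substrates Irs1 and Irs2, which recruit PI3-kinase and so activate the kinase AKT. AKT phosphorylates the transcription factors Foxo1 and Foxo3 and keeps them out of the nucleus, so that genes they induce, among them genes of glucose production and Irs2 itself, are read more in the fasted liver than in the fed one. Most of this control acts on proteins, which mRNA levels do not measure.

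The study crossed genotype with feeding. Control mice carried floxed (fl/fl) alleles, and knockout mice lacked Gpt2, the gene of alanine transaminase 2, in the liver. Mice of each genotype had free access to food or were fasted for 18 h. Each of the 4 groups had 6 libraries. Control fed replicate 6, whose file broke off after 964 complete gene lines, and control fasted replicate 4, described in the next paragraph, were left out, so that 22 libraries remained: 5 control fed, 5 control fasted, 6 knockout fed and 6 knockout fasted. The labels name no strain, age or driver of the deletion. They also leave unsaid whether the libraries are from separate animals, and p-values then cover only the spread among these libraries, which may be technical.

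The 22 libraries held 18.4 to 55.3 M reads assigned to genes. CPM are read counts scaled to the library's total, with that total adjusted by TMM for differences in composition between libraries. Deposited CPM, where named, are scaled to the library's total alone. Gpt2 stood at 307 to 447 CPM in control fed livers against 48.3 to 78.0 CPM in knockout fed livers. When fasted, Gpt2 stood at 557 to 795 CPM in control against 52.1 to 148 CPM in knockout livers. The genotypes did not overlap in either state (log2 difference -2.61 ± 0.19, SE, when fed and -2.64 ± 0.19 when fasted). All 7 hepatocyte markers were detected, and the 6 kidney tubule markers summed to 20.2 CPM or less in each library. The 20.2 CPM was the highest of the control fasted libraries, whose median was 0.376 CPM. The highest sums were 3.39 CPM in control fed, 1.28 CPM in knockout fed and 3.09 CPM in knockout fasted livers. The library left out, control fasted replicate 4, had 123 CPM of the hepatocyte marker Alb and 7041 CPM of the kidney marker Kap in the deposited values, where the 22 had at least 46335 and at most 8.88 CPM. In bulk liver RNA, fewer cells of a type and less RNA per cell cannot be told apart.

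RefSeq promoter windows were found for 8 of the 9 genes, 13 windows in all, each from 250 bases before to 50 bases after a start. They were searched on both strands for 3 motifs. These were GTAAACA, a site that FOXO factors bind, CAAAACA, the core of the insulin response element, which FOXO factors also bind, and the glucocorticoid receptor's paired sites AGAACA and TGTTCT set 3 bases apart. CAAAACA lay in the windows of both receptor substrates, Irs1 and Irs2, and of no other member. Of all 32851 windows of the same length in the table, 6.28% held CAAAACA, 3.65% GTAAACA and 0.00913% the glucocorticoid motif. GTAAACA was found in 1 member window, that of the upstream Sesn1 start, 23 bases inside the transcript, and no member window held the glucocorticoid motif. The 250 bases before the start of Irs2, Irs1 and Igfbp1 are shown because these carry the motif or, for Igfbp1, because that gene's values are given beside those of Irs2 below. Igfbp1, a secreted IGF binding protein and a known FOXO target, is not one of the 9 and was chosen after its values were seen. The sequences are from GRCm38.p6 and run 5′ to 3′ on the gene's strand, with the motif in capitals. TGTTTTG is CAAAACA read on the opposite strand. A match is a description of the letters and not a measured binding site.
Irs2 (chr8:11008930-11009179, minus strand): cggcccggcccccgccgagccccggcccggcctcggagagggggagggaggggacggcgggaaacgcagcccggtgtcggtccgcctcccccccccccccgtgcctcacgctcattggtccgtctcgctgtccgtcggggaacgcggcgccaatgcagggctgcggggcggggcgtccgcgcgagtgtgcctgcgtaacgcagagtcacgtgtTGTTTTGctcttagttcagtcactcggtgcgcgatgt
Irs1 (chr1:82291440-82291689, minus strand): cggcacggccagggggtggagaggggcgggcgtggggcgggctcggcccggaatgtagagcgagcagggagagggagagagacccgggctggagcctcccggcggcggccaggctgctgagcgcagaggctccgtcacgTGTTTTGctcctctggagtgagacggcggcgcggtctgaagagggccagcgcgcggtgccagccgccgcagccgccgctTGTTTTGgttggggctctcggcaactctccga
Igfbp1 (chr11:7197537-7197786, plus strand): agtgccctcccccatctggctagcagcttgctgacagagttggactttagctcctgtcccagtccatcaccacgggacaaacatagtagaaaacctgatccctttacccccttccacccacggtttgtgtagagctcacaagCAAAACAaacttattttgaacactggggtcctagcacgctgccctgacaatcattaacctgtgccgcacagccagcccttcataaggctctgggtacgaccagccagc
In Irs2 the motif begins 37 bases before the RefSeq start. Irs1 holds it at 111 and at 32 bases before the RefSeq start, on the opposite strand each time, and Igfbp1 at 108 bases before that start on the gene's own strand. For Irs2 and Irs1 the RefSeq start lies upstream of the 5′ end of the gene as counted, chr8:11008458 and chr1:82291416. Distances from those ends are therefore larger.

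On the GRCm38 assembly Insr spans chr8:3150922-3279617 and Irs2 chr8:10986980-11008458, both on the minus strand of one chromosome. Foxo3 (chr10:42181841-42276755, minus strand) and Sesn1 (chr10:41810574-41908424, plus strand) also share a chromosome. Irs1 lies at chr1:82233101-82291416 (minus), Pik3r1 at chr13:101680563-101768217 (minus), Akt2 at chr7:27591552-27640826 (plus), Foxo1 at chr3:52268337-52350109 (plus) and Klf15 at chr6:90462576-90475238 (plus). The counts cover exons, whose summed length ran from 2.53 kb for Klf15 to 10.1 kb for Pik3r1.

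Levels of different genes were compared per kilobase of gene length, as TMM-scaled CPM per kilobase (TMM adjusts library totals for differences in composition). Klf15, a Krüppel-like factor that promotes amino acid breakdown and glucose production, was by far the most abundant of the 9 in control fed livers at 78.0 ± 25.3 (SD, n = 5). Akt2, the AKT kinase best known for insulin action in liver, followed at 13.8 ± 1.14 and Insr, the insulin receptor, at 11.5 ± 1.15, and the ranges of these neighbours did not overlap. Foxo3 was at 9.54 ± 1.99, and its range overlapped that of Insr. Pik3r1, the main regulatory subunit of PI3-kinase, had 5.37 ± 0.966, below the range of Foxo3, and Foxo1 had 5.35 ± 1.52, with its highest library at 7.19 just above the lowest of Foxo3 at 7.13. The 3 lowest were Irs2 at 3.88 ± 2.70, Sesn1 at 3.26 ± 1.30 and Irs1 at 2.36 ± 0.696, each overlapping its neighbours in this order.

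Relatives of the members show how much of each step these genes carry at the mRNA level. Akt2 made up 43.8% to 55.3% of the summed per-kilobase level of Akt1 and Akt2 in control fed livers, where Akt1 had 13.5 ± 2.33 CPM per kilobase (SD, n = 5). Pik3r1 made up 36.4% to 42.9% of the regulatory subunit genes there, next to Pik3r2 at 7.66 ± 0.616, while Pik3r3 had 0.335 ± 0.236. Foxo4 had 6.92 ± 1.41, between Foxo3 and Foxo1, and Foxo6 was at or near 0, with at most 0.299 in any library. Among the sestrins, stress-induced restrainers of mTOR complex 1, the per-kilobase levels were alike: 3.26 ± 1.30 for Sesn1, 2.99 ± 1.24 for Sesn2 and 3.54 ± 0.716 for Sesn3. The Irs2 share of the 2 substrate genes stood out by its spread. It ran from 26.6% to 77.3% in control fed livers, but only from 78.1% to 80.3% in control fasted livers. The gap from 77.3% to 78.1% is narrow, and how often other gene pairs differ in this way was not computed. In knockout livers it was 71.5% to 80.5% when fed and 65.2% to 89.1% when fasted.

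**Figure D1:**
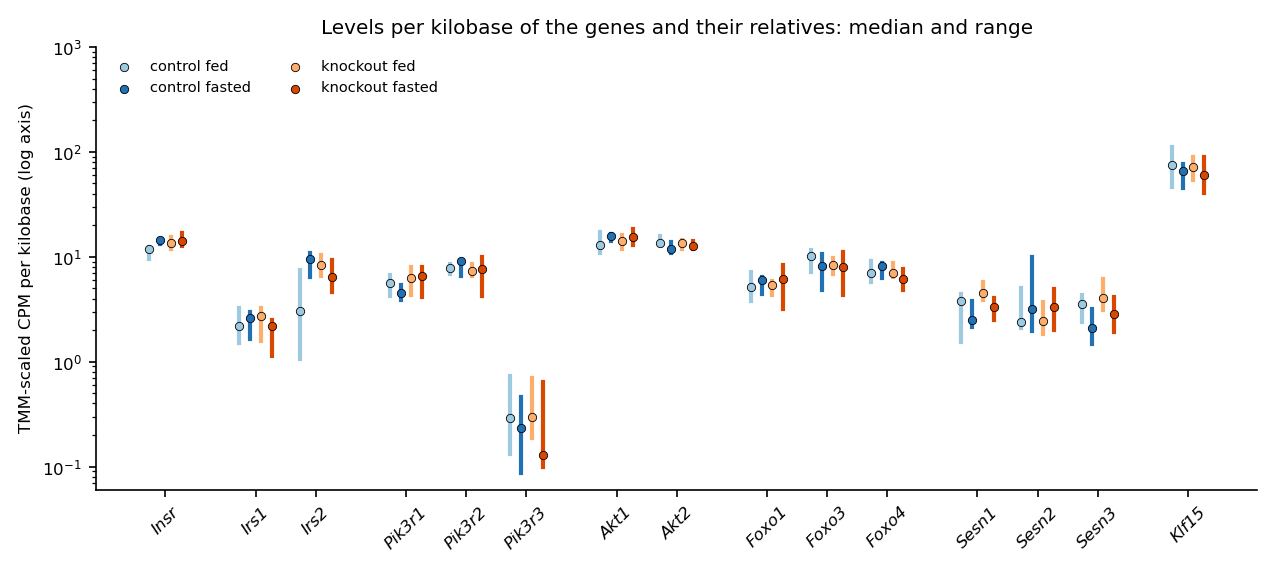
Level per kilobase (TMM-scaled CPM per kilobase, log axis) of the 9 genes and their relatives; points are group medians and bars the range over the 5 or 6 libraries of each group, and Foxo6, at 0 in most libraries, is not drawn. Klf15 lies above all others, Pik3r3 lies below 1, and Irs2 spans a wide range in control fed livers, from 1.05 to 7.49.

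The first question was what 18 h of fasting did to these genes in control livers. None of the 9 passed edgeR's quasi-likelihood test at a Benjamini-Hochberg adjusted p under 0.05, where 8.12% of all genes tested did (3.99% higher and 4.13% lower in fasted livers). At an unadjusted p under 0.05 there were 3276 of all 16757 genes tested and 2 of the 9, Irs2 and Insr. DESeq2 called both and limma voom, in either form, called Irs2 alone. The levels of the 2 groups did not overlap for 1 of the 9, Insr, against 7.91% of all genes. The largest estimate was that of Irs2, 2.33-fold higher in fasted livers (95% interval 1.402 to 3.86).

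**Figure D2:**
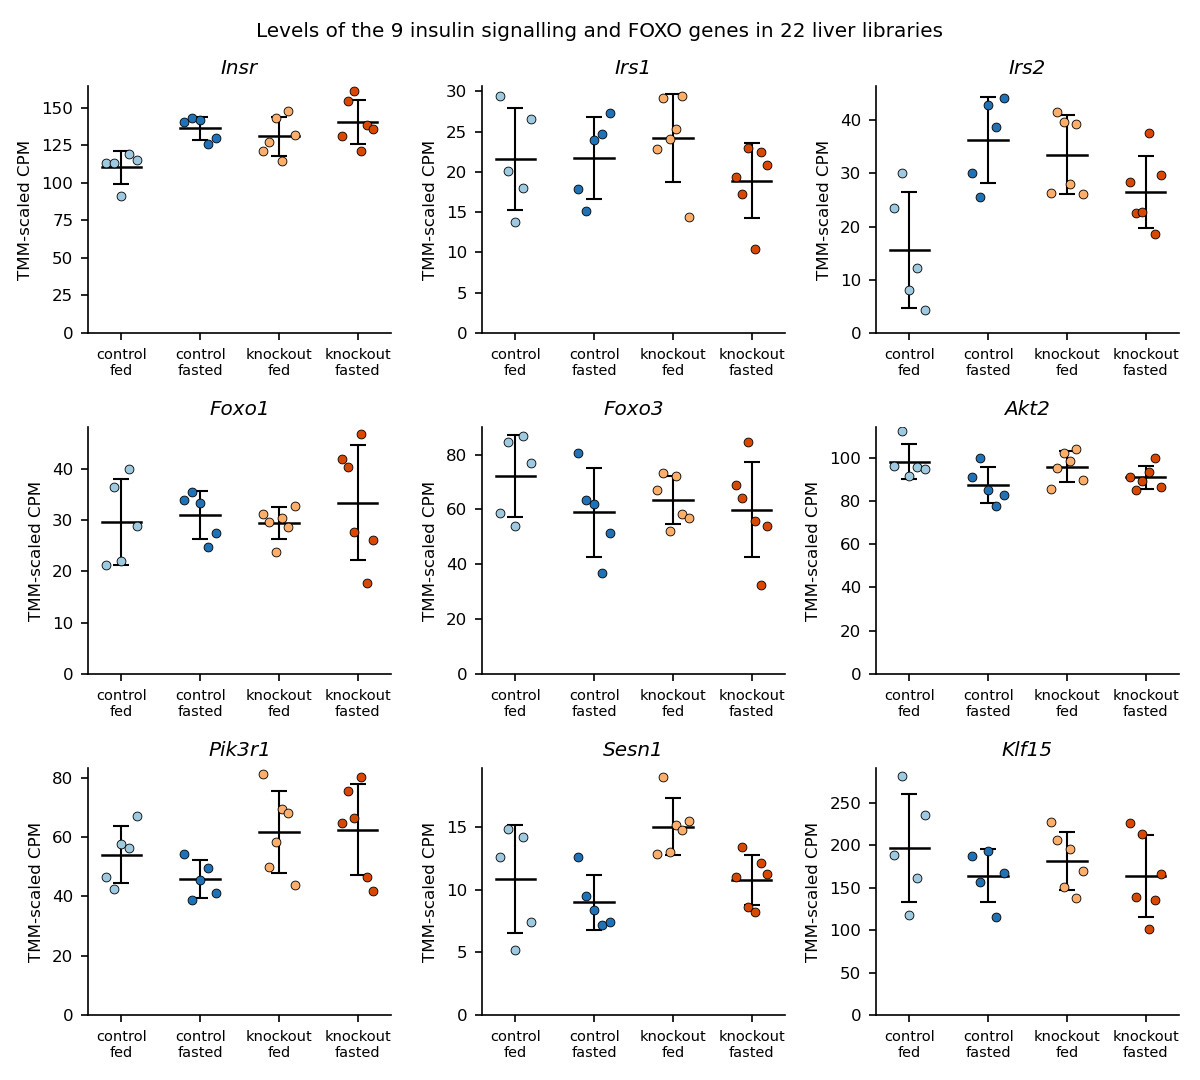
TMM-scaled CPM of each of the 9 genes by group, with 1 point per library, the group mean as a line and 1 SD as error bars. Irs2 is low in 3 of the 5 control fed libraries, and the 5 control fasted libraries of Insr all lie above the 5 control fed ones.

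Insr, which starts the pathway at the cell surface, had 113, 113, 91.2, 119 and 115 TMM-scaled CPM in control fed replicates 1 to 5. In control fasted replicates 1, 2, 3, 5 and 6 it had 140.5, 144, 142, 126 and 130.1 CPM. Every fasted library was above every fed one. The log2 difference was 0.30 ± 0.11 (SE), a 1.23-fold higher level with a 95% interval of 1.07 to 1.43 and an adjusted p of 0.0725. It passed in 2 of 32 alternatives, with DESeq2 (adjusted p 0.0318) and with the filter of a mean CPM of at least 1 (adjusted p 0.0439). It was not called on the omission of any 1 library, and its adjusted p over the 32 alternatives reached 0.474. Summed markers of sinusoidal endothelium, another liver cell type, were also higher in control fasted livers, 121 to 163 CPM against 93.0 to 143 CPM in control fed ones, and 1 of the 6, Lyve1, was called. Their part in the result was not tested.

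Irs1, the substrate that also serves growth signals in many tissues, had 29.4, 20.1, 13.8, 18.0 and 26.6 CPM in control fed and 17.8, 15.1, 24.0, 24.6 and 27.3 CPM in control fasted livers. The 2 groups overlapped over most of their range. The log2 difference was 0.01 ± 0.22, with a 95% interval from -0.41 to 0.44, so that changes of up to about that size were not resolved. Exons of Irs1 overlap those of Gm9747 on the other strand over 2822 bases, and no source names the strand setting of the counting. Whether reads over these bases were counted for Irs1, for both genes or for neither is therefore not known. The per-kilobase level of Irs1 and the Irs2 share given above carry the same limit. For Irs2 and 9530052E02Rik the overlap is 162 bases, and for Foxo1 and Gm20402 it is 674 bases.

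Irs2, the substrate whose gene insulin represses, had 23.5, 30.1, 8.09, 12.2 and 4.24 CPM in control fed replicates 1 to 5. The control fasted libraries had 30.1, 25.6, 42.9, 38.7 and 44.1 CPM. All fed libraries but replicate 2 were below every fasted library, replicate 2 was level with the fasted ones, and the group means were 15.6 ± 10.8 against 36.3 ± 8.12 CPM (SD, n = 5 each). The log2 difference was 1.22 ± 0.37 with an adjusted p of 0.0507, just short of the threshold. It was called in 11 of 32 alternatives, and its estimate stayed positive in all 32, from 0.73 to 1.66. The calls included the omission of control fed replicate 1, 2 or 5, of control fasted replicate 2 and of knockout fasted replicate 4 (adjusted p 0.00693 to 0.04997).

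The 2 lowest control fed libraries, replicates 3 and 5, carry neighbouring numbers in their titles, in a cluster of numbers with knockout fed replicate 6. No label says what the numbers stand for. Within this cluster Irs2 had 8.09 and 4.24 CPM in control and 26.1 CPM in knockout. The 26.1 CPM was also the lowest value of the knockout fed libraries, just below 26.3 CPM in knockout fed replicate 1. With the 3 libraries left out, the fasting difference of Irs2 in control livers was 0.73 ± 0.26 (log2, SE) with an adjusted p of 0.115. That of Insr was then 0.24 ± 0.12 with an adjusted p of 0.290.

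Igfbp1 was the second closest of 7416 abundant genes to Irs2 in its pattern over the 22 libraries. In control fed replicates 1 to 5 it had 81.0, 173, 7.78, 33.7 and 4.85 CPM. These values fall in the same order over the 5 libraries as those of Irs2, from replicate 5 at the bottom through 3, 4 and 1 to replicate 2 at the top. In control fasted livers Igfbp1 had 231, 445, 86.4, 218 and 102 CPM and Irs2 did not keep that order. Thrsp, a lipogenic gene induced by feeding, was highest in replicates 3 and 5, with 191, 136, 428, 112 and 412 CPM in replicates 1 to 5, and so was Acly, ATP citrate lyase, with 314, 292, 344, 279.5 and 386 CPM. Replicates 3 and 5 of the fed controls held the lowest Irs2 and Igfbp1 and the highest Thrsp and Acly values of the 5. Igfbp1 was named for its correlation with Irs2 over these same libraries, with a Pearson's r of 0.74, and 0.34 without replicates 3 and 5. The shared order in these libraries is therefore no separate result. Thrsp and Acly are from a list of 12 genes induced by insulin or feeding, whose other genes were not set beside Irs2 here. Setting these genes side by side was chosen after their values were seen.

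**Figure D3:**
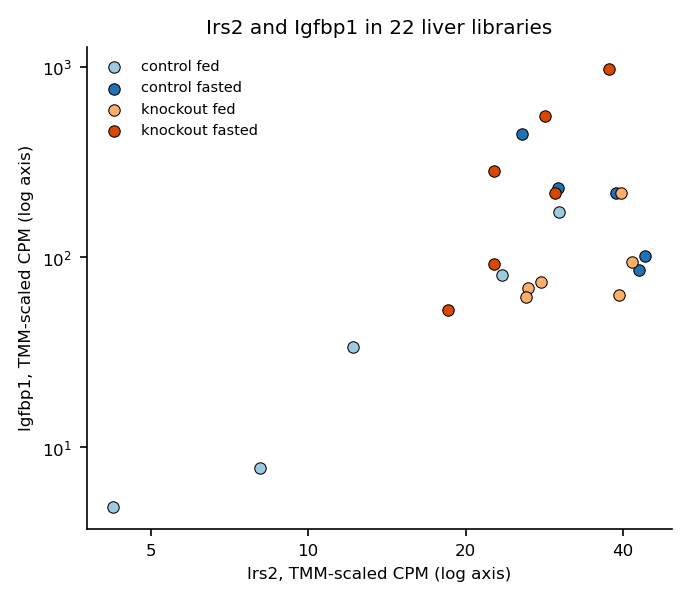
Irs2 against Igfbp1 in TMM-scaled CPM (both log axes), with 1 point per library and colour for the group. Control fed replicates 5, 3 and 4, at 4.24, 8.09 and 12.2 CPM of Irs2, lie at the lower left, below the other libraries in both genes.

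Pik3r1 carries the SH2 domains that dock on the phosphorylated substrates. It had 46.5, 42.6, 57.8, 56.5 and 67.1 CPM in control fed and 54.4, 38.6, 45.6, 49.6 and 41.0 CPM in control fasted livers. The groups overlapped, with a log2 difference of -0.24 ± 0.17 and an adjusted p of 0.513. Akt2 had 96.3, 112, 91.6, 95.7 and 94.9 CPM when fed against 91.0, 99.6, 85.2, 77.7 and 82.9 CPM when fasted. Fasted levels in 4 of 5 libraries were lower than any fed one, yet the groups overlapped, and the log2 difference was -0.17 ± 0.10 (adjusted p 0.379). Its 95% interval, from -0.37 to 0.03, was the narrowest of the 9 in this comparison.

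Foxo1, the main FOXO factor of glucose production in hepatocytes, had 21.2, 36.5, 21.95, 39.9 and 28.8 CPM in control fed livers. In control fasted livers it had 34.0, 35.5, 33.4, 24.8 and 27.4 CPM, inside the fed range, and the log2 difference was 0.06 ± 0.20 (adjusted p 0.928). Foxo3, its relative with overlapping targets, had 58.7, 84.5, 54.0, 86.9 and 77.0 CPM when fed and 80.4, 63.6, 62.1, 36.9 and 51.5 CPM when fasted. The groups overlapped here too, with a log2 difference of -0.29 ± 0.20 (adjusted p 0.498). The Foxo1 share of the sum of both per kilobase was 33.0% to 38.5% in control fed and 36.5% to 47.8% in control fasted livers.

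Sesn1, a sestrin that FOXO factors are known to induce in several cell types, had 12.6, 14.8, 5.16, 14.2 and 7.44 CPM in control fed livers. The lowest values were again those of replicates 3 and 5. In control fasted livers it had 12.6, 9.54, 8.38, 7.17 and 7.44 CPM, and the log2 difference was -0.27 ± 0.23 (adjusted p 0.616). Without the title-number cluster it was -0.62 ± 0.21 (adjusted p 0.0895). It also moved when 1 library was left out, to -0.44 on omission of control fed 3, -0.41 of control fasted 1, -0.13 of control fed 2 and -0.15 of control fed 4. Klf15 had 188, 282, 118, 161 and 236 CPM when fed and 188, 157, 194, 115 and 167 CPM when fasted. Its groups overlapped over most of their range, with a log2 difference of -0.26 ± 0.23 (adjusted p 0.617) and a 95% interval from -0.71 to 0.18.

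The second question was the same fasting contrast in knockout livers. Again 0 of the 9 were called by edgeR, against 6.14% of all genes (2.88% higher, 3.26% lower), and 0 had groups that did not overlap, against 3.97% of all genes. Sesn1 was the 1 member with an unadjusted p under 0.05, beside 2678 of all 16757 genes tested. DESeq2, limma voom and each of the other alternatives called none. Sesn1 had 12.9 to 19.1 CPM (median 14.97) in knockout fed and 8.25 to 13.5 CPM (median 11.2) in knockout fasted livers. Of the 6 fasted libraries, 5 lay below the fed range. The log2 difference was -0.48 ± 0.21, a level 0.716 times the fed one (95% interval 0.539 to 0.949), with an adjusted p of 0.211.

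Irs2 in knockout livers had 26.1 to 41.6 CPM (median 33.6) when fed and 18.5 to 37.5 CPM (median 25.6) when fasted. Its estimate was negative here, at -0.33 ± 0.33 (adjusted p 0.777), where it was 1.22 in control livers. Insr had 114 to 148 CPM (median 129.6) when fed and 121 to 161 CPM (median 137) when fasted, a log2 difference of 0.10 ± 0.10 (adjusted p 0.750). Irs1 had 14.4 to 29.4 CPM (median 24.7) against 10.4 to 22.9 CPM (median 20.1), a difference of -0.36 ± 0.20 (adjusted p 0.410). The ranges overlapped for all 3. Foxo1 had 23.9 to 32.8 CPM in knockout fed livers and spread more widely when fasted, from 17.7 to 46.7 CPM. Foxo3 had 52.1 to 73.3 and 32.4 to 84.4 CPM, Pik3r1 43.7 to 81.2 and 42.0 to 80.2 CPM, Akt2 85.5 to 104 and 84.9 to 99.997 CPM, and Klf15 138 to 227 and 102 to 226 CPM. The log2 differences of these 5 lay between -0.15 (Klf15) and 0.18 (Foxo1), all with intervals that include 0.

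**Figure D4:**
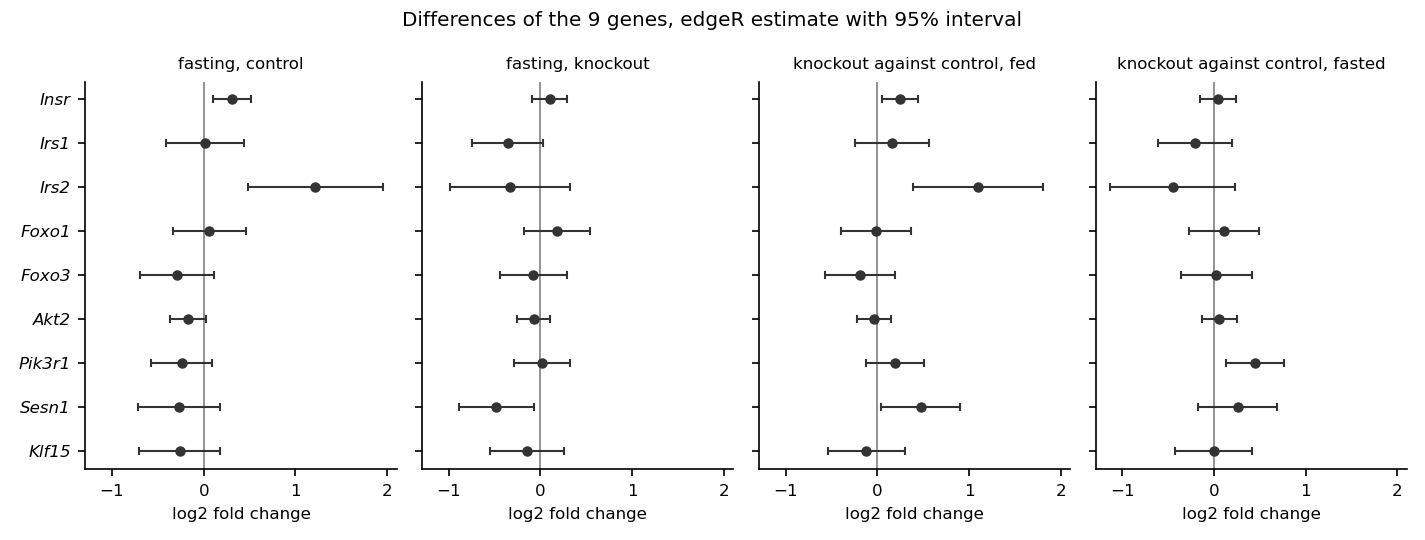
Log2 fold changes of the 9 genes in the 4 pairwise comparisons, with the edgeR estimate as a point and its 95% interval as a bar; positive values mean higher in fasted livers in the left pair of panels and higher in knockout livers in the right pair. Irs2 has the widest interval in each panel, and Insr and Akt2 have the narrowest intervals.

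Averaged over both genotypes, fasting again moved 0 of the 9 past the threshold by edgeR, in a comparison that called 14.3% of all genes (7.08% higher, 7.26% lower). The members' median log2 difference was -0.12, beside 0.0088 over all genes tested, and 3 of 9 estimates were above 0. Insr and Sesn1 had an unadjusted p under 0.05, as did 4159 of all 16757 genes tested. The estimate for Insr was 0.20 ± 0.07 with an adjusted p of 0.0528, and 11 of 31 alternatives called it, among them DESeq2 (adjusted p 0.0257), both forms of limma voom and the omission of any 1 of 6 libraries (control fed 4, control fasted 5, knockout fed 3 and 5, knockout fasted 1 and 4). Without the title-number cluster Insr was at 0.17 ± 0.08 and was not called (adjusted p 0.180). Sesn1 stood at -0.37 ± 0.15 with an adjusted p of 0.111. Without control fed replicate 3 it was called at -0.46 ± 0.14 (adjusted p 0.0230), and without the title-number cluster of 3 libraries at -0.55 ± 0.14 (adjusted p 0.00753).

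The third question was the difference between genotypes. No member was called in fed livers or in fasted livers by edgeR, by DESeq2 or in any other alternative, and in each state the test called 0.00597% of all genes, which is 1 gene, Gpt2 itself. In fed livers the count of all genes called ran from 1 to 13 as each library was left out, with 13 without control fed replicate 4, 8 without knockout fed replicate 4, 5 without control fed replicate 2, 3 without knockout fasted replicate 6 and 2 without control fasted 5, knockout fed 2 or knockout fasted 1, 2 or 4. It was 1 each time in fasted livers. Groups that did not overlap were found for 0 of the 9 in either state, against 1.18% of all genes in fed and 0.489% in fasted livers. At an unadjusted p under 0.05 there were 3 members in fed livers (Irs2, Insr and Sesn1) and 1 in fasted livers (Pik3r1). Of all 16757 genes tested there were 1509 in fed and 672 in fasted livers. In fed livers the knockout estimate was 1.10 ± 0.36 for Irs2 (adjusted p 0.358), 0.25 ± 0.10 for Insr (adjusted p 0.455) and 0.47 ± 0.22 for Sesn1 (adjusted p 0.524). All 3 were higher in knockout, and all 3 rest on the same 5 control fed libraries, in which replicate 3 was the lowest for Insr and Sesn1 and the second lowest for Irs2. Without the title-number cluster the 3 estimates were 0.67 ± 0.26, 0.18 ± 0.12 and 0.11 ± 0.22. Summed sinusoidal endothelium markers were 93.0 to 143 CPM in control fed and 134 to 210 CPM in knockout fed livers, and summed Kupffer cell markers were 104 to 164 and 132 to 208 CPM. Their part in these differences was not tested.

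In fasted livers Pik3r1 had 38.6 to 54.4 CPM in control and 42.0 to 80.2 CPM (median 65.5) in knockout. Of the 6 knockout libraries, 4 lay above every control library. The log2 difference was 0.45 ± 0.16, 1.36-fold (95% interval 1.09 to 1.70), with an adjusted p that rounds to 1. Summed Kupffer cell markers were 88.2 to 112 CPM in control fasted and 94.2 to 205 CPM in knockout fasted livers, and summed sinusoidal endothelium markers 121 to 163 and 135 to 217 CPM. In this comparison 0 of the 6 markers of either list were called by edgeR and 6 of 6 estimates of each were above 0, and their part in the result was not tested. The estimates for Akt2, Foxo1, Foxo3, Insr and Klf15 in fasted livers lay between -0.0035 (Klf15) and 0.11 (Foxo1), and their standard errors between 0.10 (Akt2) and 0.22 (Klf15).

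Whether fasting acted differently in the 2 genotypes was tested by the interaction. It called 0.00597% of all genes, 1 gene, Zfp871 (-1.42 ± 0.25, adjusted p 0.0284), which is no member and is named after its value was seen. The count was 0 on omission of any single one of control fed 1, 3, 4 and 5, control fasted 1 and 6, knockout fed 1, 4 and 5, and knockout fasted 1, 3, 4 and 6, and of the title-number cluster. Irs2 was the 1 member with an unadjusted p under 0.05, beside 786 of all 16757 genes tested. Its interaction was -1.55 ± 0.50 on the log2 scale (95% interval -2.53 to -0.57) with an adjusted p of 0.977, and between -2.01 and -1.12 over 31 alternatives, none of which called it. The opposite signs of the 2 Irs2 fasting estimates were therefore not resolved at the level of all genes. This contrast uses the same control fed libraries as the others. The interactions of the other 8 members were between -0.37 (Irs1) and 0.25 (Pik3r1), and DESeq2 and limma voom called none.

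The wider pathway was read from gene lists around these members, over the fasting effect averaged over genotypes. The lists were chosen with results of these data known, so that their counts describe and do not support a direction, and each count stands beside 7.08% of all genes called higher and 7.26% called lower. Among receptors, substrates and adaptors, 2 of 10 tested genes rose and none fell: the adaptor Crk by 0.33 ± 0.08 on the log2 scale (adjusted p 0.00365) and Sh2b1, an adaptor that enhances insulin receptor signalling, by 0.29 ± 0.07 (adjusted p 0.00398). Among 8 other PI3-kinase and AKT genes edgeR called 0, where 2 had the smallest p: Pdpk1, the kinase that activates AKT, at 0.20 ± 0.08 (adjusted p 0.0999) and Akt1 at 0.17 ± 0.08 (adjusted p 0.208). Over 31 alternatives that list had between 0 and 1 calls. Of 12 genes of the mTOR complexes Mtor itself rose, by 0.46 ± 0.12 (adjusted p 0.00909), and without the title-number cluster it had an adjusted p of 0.0517.

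Of 18 inhibitors of insulin signalling, 2 rose and 3 fell. Among those that fell were Ptprf, a receptor phosphatase that acts on the insulin receptor, by 0.60 ± 0.09 (log2), and the adaptor Grb7 by 0.34 ± 0.09 (adjusted p 8.5e-06 and 0.00558). Trib1, a pseudokinase, rose by 0.37 ± 0.09 (adjusted p 0.00428), and the other was Inpp5k, a phosphoinositide phosphatase, at 0.45 ± 0.14 (adjusted p 0.0228). The Inpp5k call was lost with library totals and when control fed replicate 2 or control fasted replicate 5 was left out. The list's median was 0.06.

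Of 23 genes known as FOXO-induced in liver or elsewhere, 8 rose and 1, Sesn3, fell, with a list median of 0.23. Trib1 is in this list as well as among the inhibitors. Bnip3, a mitophagy receptor, had 48.5 to 67.2 CPM in control fed and 121 to 161 CPM in control fasted livers, and its averaged log2 change was 1.47 ± 0.15 (adjusted p 1.5e-07). Pnpla2, adipose triglyceride lipase, rose by 1.002 ± 0.12, Mttp, which loads lipid onto apolipoprotein B, by 0.61 ± 0.08, and Cdkn1a, the cell cycle inhibitor p21, by 3.46 ± 0.67 (adjusted p 2.0e-07, 8.2e-07 and 0.00109). Cdkn1a had adjusted p values of 0.0736 to 0.107 with limma voom. Igfbp1 rose by 1.88 ± 0.60 (adjusted p 0.0396), but its call was lost in 17 of 31 alternatives (adjusted p 0.0520 to 0.116). The libraries whose omission ended it were control fed 1, 3, 4 and 5, control fasted 1, 2 and 5, knockout fed 1, 2, 4, 5 and 6, and knockout fasted 1 and 4. Without the title-number cluster 6 of the 23 rose and 0 fell, with a median of 0.08, and Sesn3 had lost its call. The members Sesn1 and Irs2, although known as FOXO-induced, were counted only among the 9.

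Of 12 genes known as induced by insulin or feeding, 8 fell and 0 rose, with a list median of -1.66. Thrsp had 112 to 428 CPM in control fed and 4.85 to 25.5 CPM in control fasted livers, and 44.4 to 194 against 6.32 to 36.3 CPM in knockout livers, and it fell by 3.59 ± 0.38 on the log2 scale (adjusted p 1.2e-06). Srebf1, the SREBP1 lipogenic factor, fell by 2.30 ± 0.25, Scd1, stearoyl-CoA desaturase, by 1.67 ± 0.18 and Acly by 1.65 ± 0.10 (adjusted p 1.8e-06, 1.2e-06 and 2.5e-14). The fed and fasted groups of Thrsp, Srebf1 and Acly did not overlap in either genotype, beside 7.91% of all genes in control and 3.97% in knockout livers. These genes were named for their small p in this comparison, so that the lack of overlap only describes them. Over 31 alternatives between 6 and 9 of the list fell, 6 of them without the title-number cluster.

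**Figure D5:**
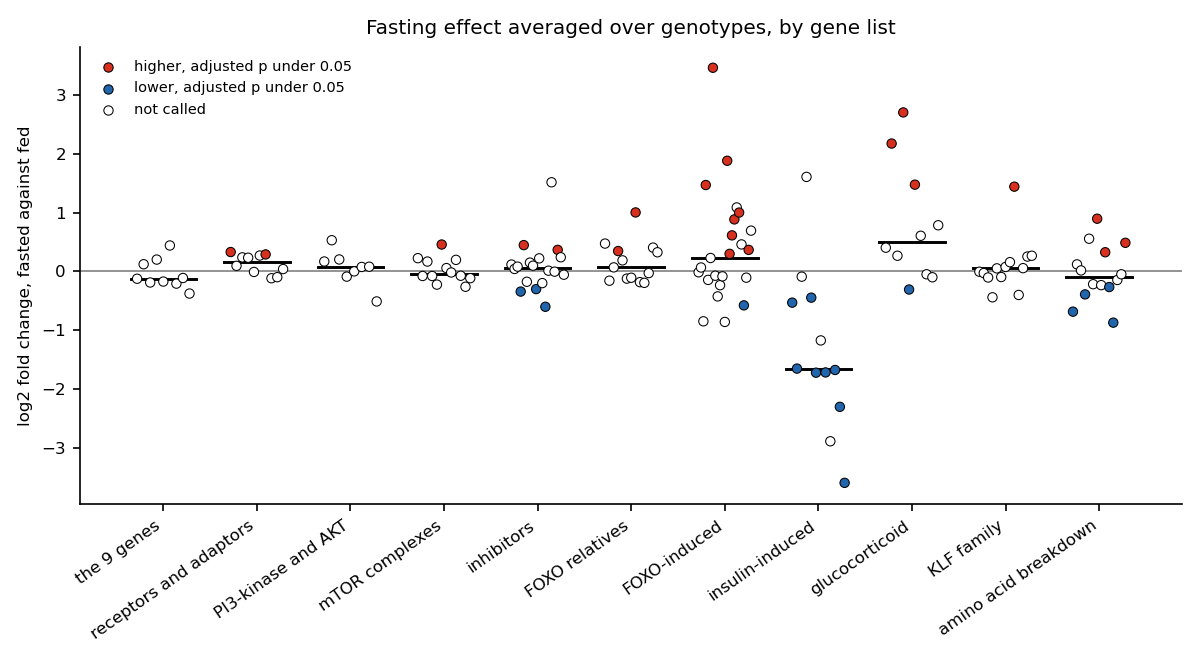
Log2 fold change for fasting averaged over genotypes, with 1 point per gene in each list, filled red for higher and blue for lower at an adjusted p under 0.05, and a line at the list's median. The 9 genes lie between -0.37 (Sesn1) and 0.44 (Irs2) with none called, and the insulin-induced list has the lowest median, -1.66.

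Klf15 is known as a target of the glucocorticoid receptor, so a list of glucocorticoid responsive genes was read beside it. Of 10 tested, 3 rose and 1 fell. Fkbp5, a chaperone induced by glucocorticoids, had 12.7 to 33.7 CPM in control fed and 65.0 to 151 CPM in control fasted livers, and rose by 2.18 ± 0.23 (adjusted p 1.2e-06). Mt2, a metallothionein, rose by 2.70 ± 0.51 and the clock gene Per1 by 1.48 ± 0.34 (adjusted p 0.000954 and 0.00466), while the receptor gene Nr3c1 fell by 0.31 ± 0.10 (adjusted p 0.0337). The Nr3c1 call was lost in 11 of 31 alternatives (adjusted p 0.0513 to 0.0783), among them the omission of control fed 1, 4 or 5, control fasted 2, knockout fed 4 or 5, or knockout fasted 1, 3 or 6. Klf15 itself was at -0.21 ± 0.15 (adjusted p 0.474).

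Among 13 other tested genes of the KLF family 1 rose, Klf4, at 1.44 ± 0.45 (adjusted p 0.0268), from low levels of 0.0247 to 2.04 CPM in control fed to 2.14 to 4.11 CPM in control fasted livers. Among 13 tested relatives and cofactors of FOXO, Foxa3, a forkhead factor of hepatocytes, rose by 1.004 ± 0.27 and Crtc2, a CREB coactivator of glucose production, by 0.35 ± 0.11 (adjusted p 0.0139 and 0.0235). Both calls were lost without the title-number cluster, and that of Crtc2 also on leaving out control fasted or knockout fasted replicate 3. Of 14 amino acid breakdown genes, a process Klf15 is known to promote, 3 rose and 4 fell: Aldh4a1 and Prodh, enzymes of proline breakdown, fell by 0.68 ± 0.09 and 0.87 ± 0.15, and Gpt2 and Tdo2, tryptophan dioxygenase, rose by 0.90 ± 0.13 and 0.49 ± 0.08 (adjusted p 3.2e-07, 0.00013, 2.1e-05 and 4.1e-05).

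The patterns of the 9 genes over the 22 libraries were compared with each other and with 7416 abundant genes by Pearson's r of log2 CPM, as a description. These points share library, depth and composition. Among the 36 pairs of members the highest r was that of Foxo3 and Klf15, 0.66, followed by Foxo1 and Foxo3 at 0.59, and the lowest was that of Irs1 and Foxo1, -0.49. With the group means removed these were 0.63, 0.69 and -0.49, so that they lay within groups. The 2 substrates had an r of 0.15 with each other, and Insr and Irs2 one of 0.46 that was 0.02 with the group means removed.

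The genes closest to Irs2 were Dnmbp (r 0.77), Igfbp1 (0.74) and Zc3h4 (0.70), and the one farthest below was Hspb8 (-0.76). With control fed replicates 3 and 5 left out these were 0.52, 0.34, 0.47 and -0.59, so that all 4 rest in part on those libraries. Insr was closest to Cxcl12 (0.84), Agtr1a (0.84) and Ric1 (0.81), and Klf15 to Tmub2 (0.84), Gba2 (0.82) and Tex264 (0.81). Foxo3 was closest to Cyp2d22 (0.84), Atp6v0a1 (0.77) and Rpap1 (0.76), which became 0.56, 0.35 and 0.34 without knockout fasted replicate 5 and control fasted replicate 5. Foxo1 was closest to Agt (0.71), Myadm (0.71) and Arhgef26 (0.71), and Akt2 to Exoc4 (0.81), Hdlbp (0.77) and Pard3 (0.77). Pik3r1 was closest to Tmpo (0.81), Mapk1ip1l (0.79) and Abca1 (0.72), Sesn1 to Sgms2 (0.78), Tcp11l2 (0.74) and Cpeb2 (0.73), and Irs1 to Dock4 (0.72), Pdp2 (0.69) and Nlrp6 (0.69). Without knockout fasted replicate 4 and control fed replicate 3, the 2 libraries farthest from the median of Irs1, the Irs1 values became 0.58, 0.56 and 0.45. With the 2 farthest libraries left out, the 3 closest genes of each of the other 6 members had an r from 0.57 (Myadm) to 0.83 (Mapk1ip1l). Those lowest in r were Tjp3 for Insr (-0.80), Lman2l for Foxo3 (-0.79), Fam207a for Sesn1 (-0.78), Qars for Pik3r1 (-0.78), Arhgap35 for Foxo1 (-0.77), Akap8l for Akt2 (-0.75), Lgalsl for Klf15 (-0.72) and Eno1 for Irs1 (-0.69).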

How the data were processed

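Polyadenylated RNA of mouse liver was sequenced, with groups read from the titles and replicates numbered in accession order. Per the submitters' processing notes the authors used bcl2fastq, featureCounts 1.4.6-p5 of Subread and STAR 2.5.1a with GRCm38 to make the deposited read counts per gene. For annotation release and strand setting the entry is: not given in the sources used here. Checked on the files, the deposited CPM is the count over the library's sum and the deposited RPKM is that CPM per kilobase of gene length. Only the counts entered tests.

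Symbols came from GENCODE M21 and, for genes it lacked, from a second list of gene names, and 40340 of the 41388 genes had one. The 22 libraries entered 1 fit of 4 group means with edgeR 4.0.16 in R 4.3.3 (robust quasi-likelihood test, TMM factors, filterByExpr with a minimum count of 10 and a minimum total of 15). A gene was called where its Benjamini-Hochberg adjusted p, over all 16757 genes tested, was under 0.05. The standard error is the estimate over the root of the F statistic. Correlations used log2 CPM with a prior count of 2 and genes with a mean of at least 3 on that scale. Library depth, 18.4 to 55.3 M reads, bounds the precision by counting error only.

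Alternatives changed the scaling (RLE factors or library totals), the filter (none beyond 1 count, or a mean CPM of 1 or more), the tool (DESeq2 1.42.0, or limma 3.58.1 voom with sample weights or a random block of 10 title-number clusters) or the libraries (only the groups compared, control fasted replicate 4 added, or any 1 library left out). Leaving out the cluster that holds control fed replicates 3 and 5 was added after seeing the data. The members and lists were chosen with earlier results of these data known. Named, apart from some results that are not reported here, were the members, their paralogs, up to 4 genes per list with the smallest p among those called for averaged fasting (2 where none was called) and, per member, the 3 genes highest and 1 lowest in correlation. Inpp5k and the side by side reading of Igfbp1, Thrsp and Acly were added after their values were seen. Lcn13 of the glucocorticoid list was not matched. Promoter windows came from RefSeq (GRCm38.p6).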

Additional observations from a re-analysis of the deposited data

Results flagged for a closer look

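In 36 sets of a member and a group, 1 library stood apart from the rest of its group in 2 sets, where chance alone gives about 1 in 20, or 1.8. Akt2 in control fed replicate 2 was at 112 TMM-scaled CPM, with the next library at 96.3 CPM. Insr in control fed replicate 3 was at 91.2 CPM, with the next at 113 CPM. Control fasted replicate 4, which was in none of the report's comparisons and in which the kidney marker Kap had 7041 CPM, held 3 members above every other control library in deposited CPM. They were Foxo1 at 40.4 (38.9 at most in the others), Foxo3 at 111 (84.6 at most) and Sesn1 at 16.6 (14.5 at most). Its Irs2 value of 43.7 CPM and its Insr value of 127 CPM lay inside the range of the other control fasted libraries.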

How the results depend on the processing

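No member was called for fasting in knockout livers, for either genotype comparison or for the interaction under any of the 32 (interaction 31) alternatives. For fasting in control livers the count of called members rose from 0 to 1 with RLE factors, with library totals and with either form of limma voom, and to 2 with a mean CPM of at least 1 and with DESeq2, and it was 0 to 1 as each library was left out. For averaged fasting it was 1 with RLE factors, a mean CPM of at least 1, DESeq2 and both forms of limma voom (Insr each time), 1 without the title-number cluster (Sesn1), and 0 to 1 as each library was left out. The cause was not tested. No called estimate of a member changed sign. The labels give the groups no shared replicate numbers, so clusters of title numbers were used as a random block (correlation -0.0128). Under it Irs2 had an adjusted p of 0.00605 for fasting in control livers, beside 0.00591 with limma voom with sample weights and no block. These 2 fits differ in the weights as well as in the block, so the effect of the block alone was not tested. Over all genes, DESeq2 called 68 genes for genotype in fed livers, where the edgeR test called 1, and 3 in fasted livers and 6 for the interaction. With control fasted replicate 4 included all 3 of these counts were 0. With control fasted replicate 4 included, 805 genes were called for fasting in control livers, 379 in knockout livers and 1529 averaged, against 1360, 1029 and 2404, and Trib1, Foxa3, Crtc2, Mttp, Igfbp1, Sesn3, Nr3c1, Tdo2 and Gpt2 lost their call for averaged fasting. The spread of 5 or 6 libraries limits the precision: the fasting fold of Irs1 in control livers had a 95% interval of 0.752 to 1.35.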
